A study of Mus musculus with 12 samples.

Results

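Fatty acids reach brown adipocytes by a chain of proteins, and 10 genes of that chain were followed here in interscapular brown adipose tissue (BAT) of mice. The rule names the genes and uses no measured value, but the set was proposed with earlier results of these data known. Each of the 10 symbols was found once among the 25124 genes listed in the expression table. They are the fatty acid binding proteins Fabp3, Fabp4 and Fabp5, the scavenger receptor Cd36, lipoprotein lipase (Lpl) with its capillary anchor Gpihbp1 and its inhibitor Angptl4, and the fatty acid transport proteins Slc27a1, Slc27a2 and Slc27a4. RNA-seq was made from male mice aged 10 weeks that had been kept for 1 week at 23 °C (RT, room temperature) or at 30 °C (TN, thermoneutrality), where a mouse needs little heat from BAT. The mice were wild type (WT) or lacked Txnip, the thioredoxin-interacting protein, in the whole body (Txnip-/-), so that a difference in BAT can start in any tissue. Both genotypes were on the C57B/6J background that the methods state, and the WT mice were littermates of the Txnip-/- mice. Genotype and temperature made 4 groups (named RT WT, TN WT and so on) of 3 libraries, 12 in all, each taken as a separate mouse. The comparisons ask what loss of Txnip does at each temperature and what 1 week of warmth does in each genotype.

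As background, Lpl is made by adipocytes and cuts triglyceride of circulating lipoproteins into fatty acids at the capillary wall. Gpihbp1, a protein of capillary endothelial cells, carries Lpl to the lumen and holds it there, and Angptl4 inactivates Lpl. Cd36 at the cell surface and the Slc27a proteins, which also couple fatty acids to coenzyme A, take part in uptake, and the Fabp proteins carry fatty acids through the cytosol. BAT burns much of this fat for heat, and its supply is known to rise in the cold and to fall in the warmth.

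Values are TPM, a measure per transcript length and per library total that can be set side by side between genes. The libraries held between 29.93 and 47.44 times 1000000 reads. Txnip itself followed the labels, at 564, 581 and 694 TPM in RT WT against 24.8, 26.9 and 35.4 in RT Txnip-/-, and at 1238, 1083 and 1072 in TN WT against 11, 14.4 and 10.5 in TN Txnip-/-. Of 10 markers of brown adipocytes, among them Ucp1 and Cidea, none was at 0 in all libraries of any group, and their summed TPM ran from 11460 to 12081 in WT and from 8638 to 10884 in Txnip-/- at RT, and from 6806 to 7661 in WT and from 3775 to 4404 in Txnip-/- at TN. The summed TPM of 10 general adipocyte markers lay between 6188 and 8169 in all 12 libraries. The sum hides single markers that moved both ways. In WT, Lep averaged 3.72 TPM at RT and 58.0 at TN, and Cidec 737 and 483. In bulk tissue, fewer cells of a type and less RNA per cell cannot be told apart.

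Promoters of 3 members are printed first, because their genes carry the results below: Fabp3 differed between the genotypes, and Slc27a2 and Slc27a4 both fell at TN. Each line holds the 250 bases before the start of the gene, 5′ to 3′ on the coding strand, from RefSeq on GRCm38.p6 (mm10). Fabp3 is at chr4:130308488-130308737, Slc27a2 at chr2:126552774-126553023 and Slc27a4 at chr2:29802384-29802633, all on the plus strand, and each ends at the start of the transcript that the authors counted. Capitals mark the motifs named after the sequences, which were searched on both strands.
Fabp3: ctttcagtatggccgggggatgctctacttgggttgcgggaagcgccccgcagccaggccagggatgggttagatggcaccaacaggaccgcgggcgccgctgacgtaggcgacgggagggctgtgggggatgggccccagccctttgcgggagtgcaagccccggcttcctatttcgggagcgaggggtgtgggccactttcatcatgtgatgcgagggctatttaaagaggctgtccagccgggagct
Slc27a2: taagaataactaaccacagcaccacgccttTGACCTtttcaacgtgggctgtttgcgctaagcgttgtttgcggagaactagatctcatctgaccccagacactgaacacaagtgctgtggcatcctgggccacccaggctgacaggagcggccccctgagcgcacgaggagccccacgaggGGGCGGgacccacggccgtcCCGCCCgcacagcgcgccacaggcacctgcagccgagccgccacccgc
Slc27a4: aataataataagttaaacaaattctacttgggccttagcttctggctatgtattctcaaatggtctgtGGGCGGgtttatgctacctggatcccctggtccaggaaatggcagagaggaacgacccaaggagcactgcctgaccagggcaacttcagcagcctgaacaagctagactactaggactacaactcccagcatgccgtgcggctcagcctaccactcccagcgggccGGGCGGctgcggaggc

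Slc27a2 held AGGTCA, a single site of nuclear receptors, on the minus strand 220 to 215 bases before its start, and 14% of all 32851 promoter windows of this length held it on either strand. GGGCGG, a GC box, stood at 68 to 63 bases on the plus strand and at 48 to 43 bases on the minus strand of Slc27a2, and at 182 to 177 and 16 to 11 bases on the plus strand of Slc27a4. It was present in 32.7% of all windows. The window of Fabp3 held neither of these, nor CCAAT (33.8% of windows), TATAAA (12.4%), CACGTG (6.02%) or the direct repeat of AGGNCA with 1 base between the copies (0.338%), which is spaced like the sites that PPAR binds with RXR. The direct repeat was in none of the windows of the 5 members with an entry in the promoter table (Fabp3, Cd36, Slc27a1, Slc27a2 and Slc27a4). GC content was 64.8% in the window of Fabp3, 64.0% in that of Slc27a2 and 54.4% in that of Slc27a4, against a median of 52.4% over all windows.

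Fabp4, the adipocyte form, was the highest of all listed genes in 6 of 12 libraries and the next highest in the others, and alone made up 77.3% to 84.6% of the summed TPM of the members. In RT WT the order was Fabp4 (16388 ± 302 TPM, SD, n = 3), Lpl (1438 ± 105), Cd36 (948 ± 64.5), Fabp3 (552 ± 23.1), Slc27a2 (220.3 ± 20.7), Angptl4 (188 ± 6.20), Gpihbp1 (134 ± 15.1), Slc27a1 (107 ± 18.5), Fabp5 (53.0 ± 7.87) and Slc27a4 (15.6 ± 2.12). Of neighbours in that order, only the ranges of Gpihbp1 and Slc27a1 overlapped. The place of Gpihbp1 depends on the transcript length used. Over the longer transcript given below it would average 65.5 TPM in RT WT, below Slc27a1, and 109 in TN Txnip-/-, below Fabp3. In TN Txnip-/- the order had changed: Angptl4 (636 ± 125) stood above Fabp3 (243 ± 8.17), and Slc27a1 (104 ± 9.31) and Slc27a2 (92.6 ± 11.6) overlapped, as did Lpl (884 ± 52.6) with Cd36 (851 ± 6.95) and Fabp3 with Gpihbp1 (223 ± 28.7).

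**Figure D1:**
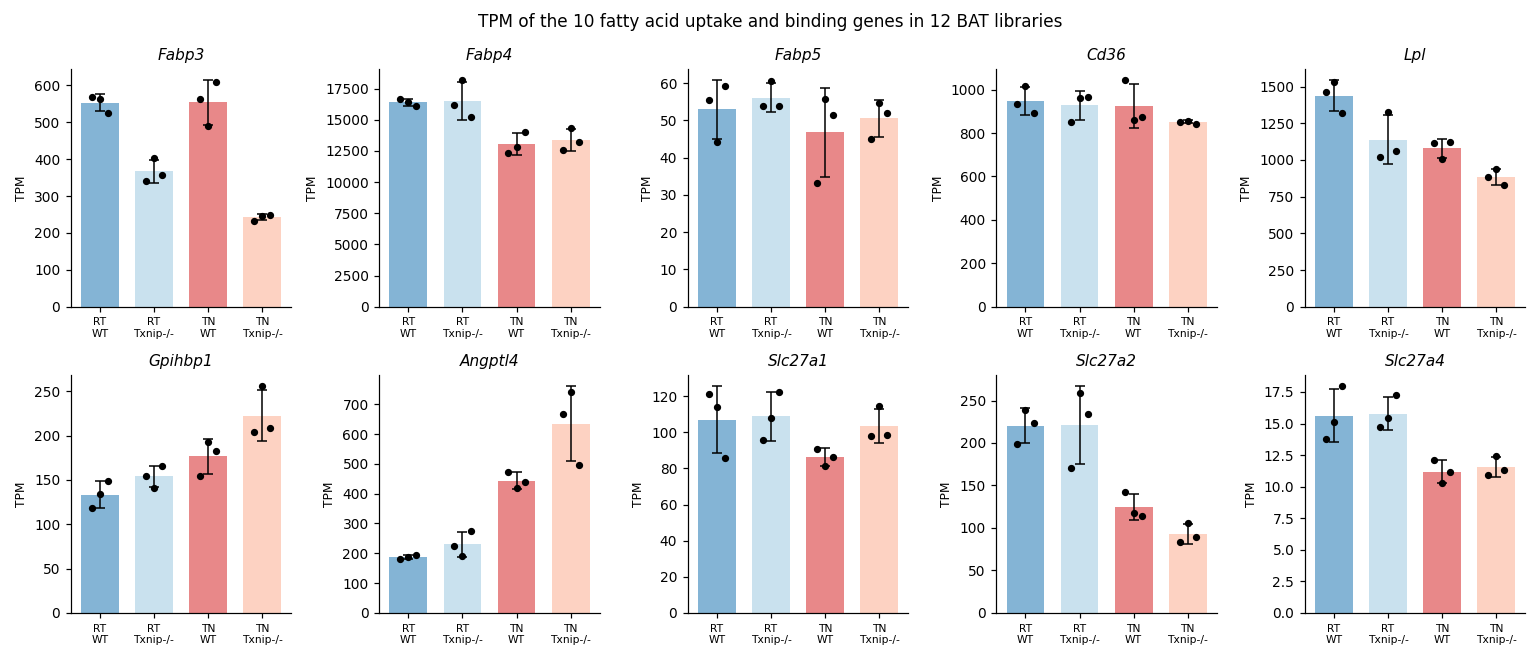
TPM (linear axis from 0) of each of the 10 members in each of the 12 libraries; points are libraries, bars are group means and error bars are SD (n = 3). Fabp3 is lower in Txnip-/- than in WT at both temperatures, with no overlap, whereas Angptl4 is higher and Slc27a2 lower in all TN libraries than in all RT libraries.

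Each change was tested with limma on log2(TPM + 1) across all genes with a mean of at least 1 TPM, with Benjamini-Hochberg adjustment. Calls needed an adjusted p under 0.05 and a fold below 0.8 or above the inverse of 0.8. Fold changes are on the log2(TPM + 1) scale, which understates the change of low genes.

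Fabp3, the heart-type binding protein that muscle and brown fat share, was the only member called between the genotypes at either temperature. It had 568, 564 and 526 TPM in RT WT and 342, 402 and 357 in RT Txnip-/-, and 562, 489.9 and 609.7 in TN WT and 233, 246 and 249 in TN Txnip-/-. Every Txnip-/- library was below every WT library, and the lowest 3 values of all 12 were those of TN Txnip-/-. The log2 fold change of Txnip-/- over WT was -0.59 at RT (95% interval -0.76 to -0.42, adjusted p = 0.0203 by limma) and -1.18 at TN (95% interval -1.39 to -0.97, adjusted p = 0.0018 by limma). At RT, Fabp3 was the only 1 of the 10 members called, and it was lower. At RT 0.726% of all 11980 genes tested were called lower and 0.76% higher. At TN, Fabp3 was again the only 1 of 10 called, where 2.17% of 12891 genes were called lower and 6.49% higher.

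The RT call was near the threshold. It was lost without RT WT replicate 1 (adjusted p = 0.0686 by limma), RT WT replicate 2 (0.105), RT Txnip-/- replicate 1 (0.0502) or RT Txnip-/- replicate 3 (0.0902), with a log2 fold change of -0.66 to -0.54 in all 6 such fits. The TN call held without each library in turn, with log2 fold changes from -1.27 to -1.11.

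With temperature Fabp3 fell in Txnip-/-: TN over RT was -0.59 in Txnip-/- (95% interval -0.78 to -0.41, adjusted p = 0.000175 by limma) and 0.00 in WT (-0.18 to 0.18, adjusted p = 0.991 by limma). The difference between these effects, tested as the interaction of genotype and temperature, was -0.59 (95% interval -0.85 to -0.33) and did not pass the adjustment over all genes (adjusted p = 0.115 by limma). None of the 10 members was called in the interaction at an adjusted p under 0.05, where 0.00801% of 12486 genes were called, which is Txnip alone. At an unadjusted p under 0.05, the interaction was passed by 1 of 10 members, Fabp3, against 1571 of the 12486 genes, so that the members show no larger share than all genes.

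The exons of Fabp3 share 81 bases with Zcchc17 and 80 with Gm10570, both on the opposite strand, and the counting named no strand. Zcchc17 averaged 30.0 TPM over the 12 libraries. Of the 749 distinct stretches of 75 bases, the read length, in the transcripts of Fabp3, 24.3% also occur in the pseudogene Fabp3-ps1, so reads of these stretches cannot be assigned to Fabp3 alone, and how such reads were counted is not given in the sources used here. Markers of other cells also moved with the groups. Of 10 skeletal muscle markers, 7 were tested at RT and all 7 were called higher in RT Txnip-/-. The summed TPM of the 10 was 24.6 to 59.6 there, against 2.997 to 3.38 in RT WT. Most of the 7 passed the filter of 1 TPM only through RT Txnip-/-, such as Ckm (0.0773 TPM in RT WT, 6.16 in RT Txnip-/-). The direction of such genes was fixed by the filter. At TN against RT in Txnip-/-, where Fabp3 fell, all 7 tested were called lower (median log2 fold change -1.81). Pvalb and Myh4 averaged under 1 TPM in every group but RT Txnip-/-, so the filter fixed their direction here too. The sum was 4.49 to 19.7 TPM in TN Txnip-/- and 3.65 to 20.4 in TN WT. Between genotypes at TN, 0 of 3 tested were called. Of the brown adipocyte markers, 2 of 10 were called lower in Txnip-/- at RT and 6 of 10 at TN. Log2 fold changes were below 0 for 7 of 10 at RT and for 10 of 10 at TN. At RT, 3 of 9 macrophage markers tested were called higher in Txnip-/-, against 0.76% of all genes. The genotypes did not overlap for 9 of 9, against 22.6% of all genes tested. The sum over this list was 136 to 219.8 TPM in RT Txnip-/-, against 82.2 to 95.7 in RT WT. At TN, 10 of 10 macrophage markers were called higher in Txnip-/- (summed 499.5 to 710.3 TPM against 176 to 308 in TN WT). So were 8 of 10 fibroblast markers (888 to 908 against 392 to 527), against 6.49% of all genes tested. Their part in the result for Fabp3 was not tested.

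Fabp4, which binds fatty acids in adipocytes and also leaves the cell, was lower at TN than at RT. It had 16689, 16390.1 and 16084 TPM in WT and 16150.2, 18171 and 15201 in Txnip-/- at RT, and 12336, 12806 and 14045 in WT and 12559.6, 14315 and 13212 in Txnip-/- at TN. All 6 TN libraries were below all 6 RT libraries. In WT, Fabp4 fell at TN (log2 fold change -0.33, 95% interval -0.52 to -0.14, adjusted p = 0.00833 by limma), and this call was lost without RT WT replicate 1, TN WT replicate 1 or TN WT replicate 2, where the log2 fold change of -0.32, -0.29 and -0.32 missed the fold threshold. Without the filter on low values it was lost through the adjusted p (0.218 by limma). In Txnip-/- the value was -0.30 (-0.49 to -0.11, adjusted p = 0.0117 by limma) and missed only the fold threshold. Between genotypes the difference was 0.01 at RT (95% interval -0.17 to 0.18) and 0.03 at TN (-0.22 to 0.28).

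Fabp5, the epidermal form, which fat cells and macrophages also make, was the lowest of the 3 binding proteins. Its TPM was 55.6, 44.1 and 59.2 in WT and 54.0, 60.6 and 53.9 in Txnip-/- at RT, and 33.1, 55.8 and 51.4 in WT and 45.1, 54.7 and 52.0 in Txnip-/- at TN. The groups overlapped in every comparison. Its log2 fold changes lay between -0.20 and 0.14, and the widest 95% interval of the 4 comparisons was -0.28 to 0.56, for Txnip-/- over WT at TN.

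The balance of the 3 binding proteins differed by genotype. Of their summed TPM, Fabp3 made up 3.28%, 3.32% and 3.15% in WT and 2.07%, 2.16% and 2.29% in Txnip-/- at RT, and 4.35%, 3.67% and 4.15% in WT and 1.82%, 1.68% and 1.84% in Txnip-/- at TN. The mean share over both temperatures was 3.65% in WT and 1.98% in Txnip-/-, a difference of -1.68 percentage points (exact permutation test within temperatures, two-sided, p = 0.005, the smallest that its 400 relabellings allow, adjusted p = 0.03 over 24 such tests). Within 1 temperature, 3 libraries against 3 cannot give a p below 0.1, which both temperatures gave. From RT to TN the share was higher in WT, by 0.80 percentage points, and lower in Txnip-/-, by -0.39, with no overlap in either genotype. In WT the level of Fabp3 averaged 552 TPM at RT and 554 at TN, while that of Fabp4, most of the sum, averaged 16388 and 13062.

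**Figure D2:**
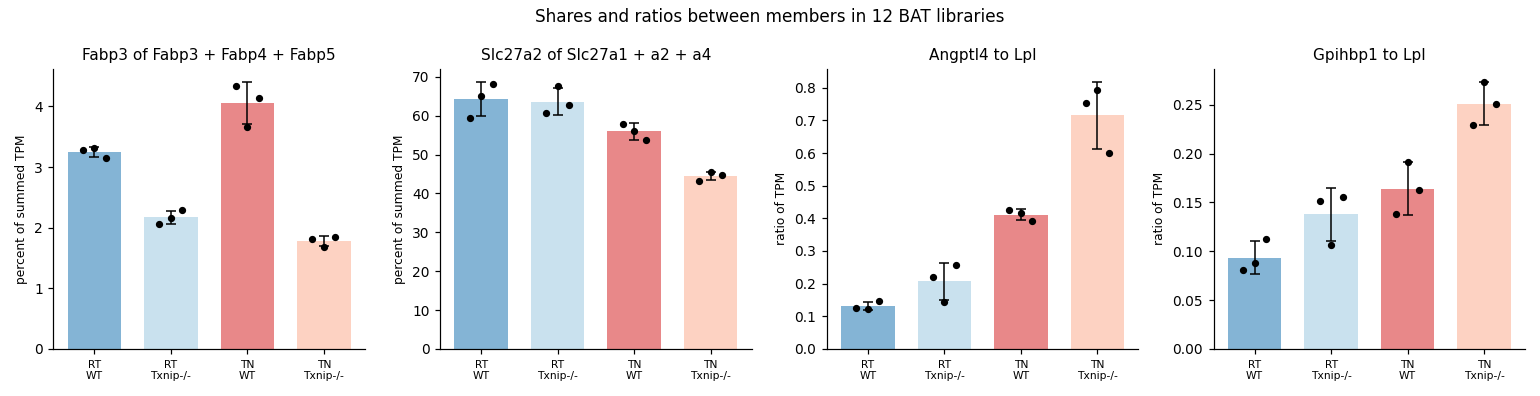
Share of Fabp3 in the binding proteins and of Slc27a2 in the transport proteins (percent of summed TPM) and ratios of Angptl4 and Gpihbp1 to Lpl (ratio of TPM), on linear axes from 0; points are libraries, bars are group means and error bars are SD (n = 3). The share of Fabp3 is 4.05% in TN WT and 1.78% in TN Txnip-/-, and the ratio of Angptl4 to Lpl is 0.131 in RT WT and 0.715 in TN Txnip-/-.

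Cd36, which binds long-chain fatty acids at the plasma membrane, was called in no comparison. It had 932, 1019 and 893 TPM in WT and 851, 962 and 968 in Txnip-/- at RT, and 1043, 861 and 876 in WT and 853, 857 and 843 in Txnip-/- at TN. The 4 group means lay within 1.11-fold of each other. TN Txnip-/- was below TN WT in every library, but the log2 fold change was -0.12 (95% interval -0.32 to 0.09, adjusted p = 0.472 by limma).

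Lpl was highest in RT WT and lowest in TN Txnip-/-. It had 1464, 1528 and 1323 TPM in WT and 1023, 1329.7 and 1062 in Txnip-/- at RT, and 1116, 1006 and 1120.2 in WT and 887, 935 and 830.1 in Txnip-/- at TN. At RT the genotypes overlapped by 1 library, and at TN they were apart. TN over RT was called lower in WT (log2 fold change -0.41, 95% interval -0.63 to -0.19, adjusted p = 0.00536 by limma) and in Txnip-/- (-0.36, -0.57 to -0.14, adjusted p = 0.0104 by limma). The call in Txnip-/- was lost without RT Txnip-/- replicate 2 (-0.24) or TN Txnip-/- replicate 3 (-0.31), through the fold threshold. Txnip-/- over WT was -0.34 at RT (-0.60 to -0.09, adjusted p = 0.185 by limma) and -0.29 at TN (-0.48 to -0.10, adjusted p = 0.0659 by limma), and was called at neither.

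Gpihbp1 went the other way. It had 118, 134 and 149 TPM in WT and 155, 141 and 165 in Txnip-/- at RT, and 154, 193 and 182 in WT and 204, 256 and 208 in Txnip-/- at TN. All TN libraries of a genotype were above all RT libraries of it. It rose at TN in WT (log2 fold change 0.40, 95% interval 0.15 to 0.65, adjusted p = 0.0131 by limma) and in Txnip-/- (0.53, 0.28 to 0.77, adjusted p = 0.00269 by limma). The call in WT was lost without RT WT replicate 1 (adjusted p = 0.0514) or TN WT replicate 2 (0.0562), and also with upper-quartile normalization (0.30, adjusted p = 0.0473, under the fold threshold) and with each library centred on its median (0.22, adjusted p = 0.15). Endothelial markers moved alike: 8 of 10 were called higher at TN in WT and 10 of 10 in Txnip-/-. Of all genes tested, 31.4% and 30.9% were called higher. The summed TPM of these markers was 434 to 455 in RT WT and 594 to 703 in TN WT. In Txnip-/- it was 340.5 to 439.7 at RT and 618 to 749 at TN, and none of these markers was at 0. Their part in the result for Gpihbp1 was not tested. Between genotypes Gpihbp1 was 0.21 at RT (-0.02 to 0.43) and 0.33 at TN (0.07 to 0.60, adjusted p = 0.116 by limma). The level of Gpihbp1 rests on a listed transcript of 402 bases, and with the 819 bases listed in the tables of log values it would be 65.5 TPM in RT WT in place of 134.

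Angptl4, a target of PPAR that inactivates Lpl, had the largest log2 fold change with temperature of the 10 members in each genotype, although with each library centred on its median it was 1.27 in Txnip-/-, against -1.42 for Slc27a2. It had 181, 189 and 193 TPM in WT and 224, 192 and 274 in Txnip-/- at RT, and 474, 418 and 439.8 in WT and 669, 741 and 498 in Txnip-/- at TN. The lowest TN library was above the highest RT library. It rose at TN by 1.23 on the log2 scale in WT (95% interval 0.92 to 1.55, adjusted p = 0.000119 by limma) and by 1.46 in Txnip-/- (1.15 to 1.77, adjusted p = 2.32e-05 by limma). Txnip-/- over WT was 0.28 at RT (0.00 to 0.55, adjusted p = 0.316 by limma) and 0.50 at TN (0.17 to 0.83, adjusted p = 0.0656 by limma). At TN it was called without TN Txnip-/- replicate 3, its lowest library (0.67, adjusted p = 0.0122), and with all 12 libraries in 1 fit (adjusted p = 0.0434). Of the macrophage and fibroblast markers given above for TN, 9 and 8 of 10 were called higher at TN than at RT in WT. In Txnip-/- the counts were 10 and 8 of 10. Of all genes tested, 31.4% in WT and 30.9% in Txnip-/- were called higher. The part of these markers in the result for Angptl4 was not tested.

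Set against the enzyme, the inhibitor and the anchor both gained. The ratio of Angptl4 to Lpl was 0.124, 0.124 and 0.146 in WT and 0.219, 0.144 and 0.258 in Txnip-/- at RT, and 0.424, 0.415 and 0.393 in WT and 0.754, 0.792 and 0.599 in Txnip-/- at TN. It was 3.33-fold higher at TN over both genotypes (exact permutation test, two-sided, p = 0.005, adjusted p = 0.03) and 1.70-fold higher in Txnip-/- over both temperatures (p = 0.01 by the exact permutation test, adjusted p = 0.04). Gpihbp1 to Lpl was on average 0.0935 in WT and 0.138 in Txnip-/- at RT, and 0.164 in WT and 0.251 in Txnip-/- at TN, 1.80-fold higher at TN (exact permutation p = 0.005, adjusted p = 0.03) and 1.51-fold higher in Txnip-/- (exact permutation p = 0.01, adjusted p = 0.04). These ratios do not depend on the scaling of a library.

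Slc27a1 (Fatp1), the form of fat and muscle, overlapped between the groups in 3 of the 4 comparisons. It had 121, 114 and 86.0 TPM in WT and 95.8, 108 and 122 in Txnip-/- at RT, and 90.9, 81.1 and 86.4 in WT and 98.2, 114 and 98.3 in Txnip-/- at TN. At TN, Txnip-/- was above WT in every library (log2 fold change 0.26, 95% interval 0.07 to 0.45, adjusted p = 0.0906 by limma), which was not a call. TN over RT in WT was -0.29 (-0.57 to -0.02, adjusted p = 0.0674 by limma). It was called lower without RT WT replicate 3 (-0.44, adjusted p = 0.00737), with upper-quartile normalization (-0.40, adjusted p = 0.0166) and with each library centred on its median (-0.48, adjusted p = 0.00945).

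Slc27a2 (Fatp2), an acyl-CoA synthetase of peroxisomes and the endoplasmic reticulum that also serves uptake, was the highest transport protein at RT. It had 198, 239 and 223 TPM in WT and 171, 258 and 235 in Txnip-/- at RT, and 142, 117 and 113 in WT and 83.4, 106 and 88.9 in Txnip-/- at TN. It fell at TN by 0.82 on the log2 scale in WT (95% interval -1.15 to -0.50, adjusted p = 0.00108 by limma) and by 1.23 in Txnip-/- (-1.56 to -0.91, adjusted p = 6.4e-05 by limma). At RT the genotypes overlapped (-0.01, -0.37 to 0.34). At TN every Txnip-/- library was below every WT library, at -0.42 (-0.68 to -0.16, adjusted p = 0.059 by limma), which became a call under 3 alternatives (adjusted p = 0.0495, 0.0497 and 0.0496 with upper-quartile normalization, median centring and the authors' log values). The exons of Slc27a2 share 419 bases with the opposite-strand Gm26697.

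Slc27a4 (Fatp4), the lowest member, was lower at TN than at RT. Its TPM was 13.8, 15.1 and 17.9 in WT and 14.7, 15.4 and 17.2 in Txnip-/- at RT, and 12.1, 10.3 and 11.2 in WT and 10.9, 12.5 and 11.4 in Txnip-/- at TN. All TN libraries were below all RT libraries. It fell at TN by 0.45 in WT (adjusted p = 0.00359 by limma) and by 0.42 in Txnip-/- (adjusted p = 0.00476 by limma), and its genotype differences were 0.02 (-0.23 to 0.27) and 0.05 (-0.15 to 0.24). Of the summed TPM of the 3 transport proteins, Slc27a2 held a mean of 64.3% in WT and 63.7% in Txnip-/- at RT, and 56.0% in WT and 44.5% in Txnip-/- at TN. The fall with temperature, of 13.7 percentage points over both genotypes, passed (exact permutation p = 0.005, adjusted p = 0.03), and the difference of -6.02 with genotype did not after adjustment (exact permutation p = 0.045, adjusted p = 0.12).

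**Figure D3:**
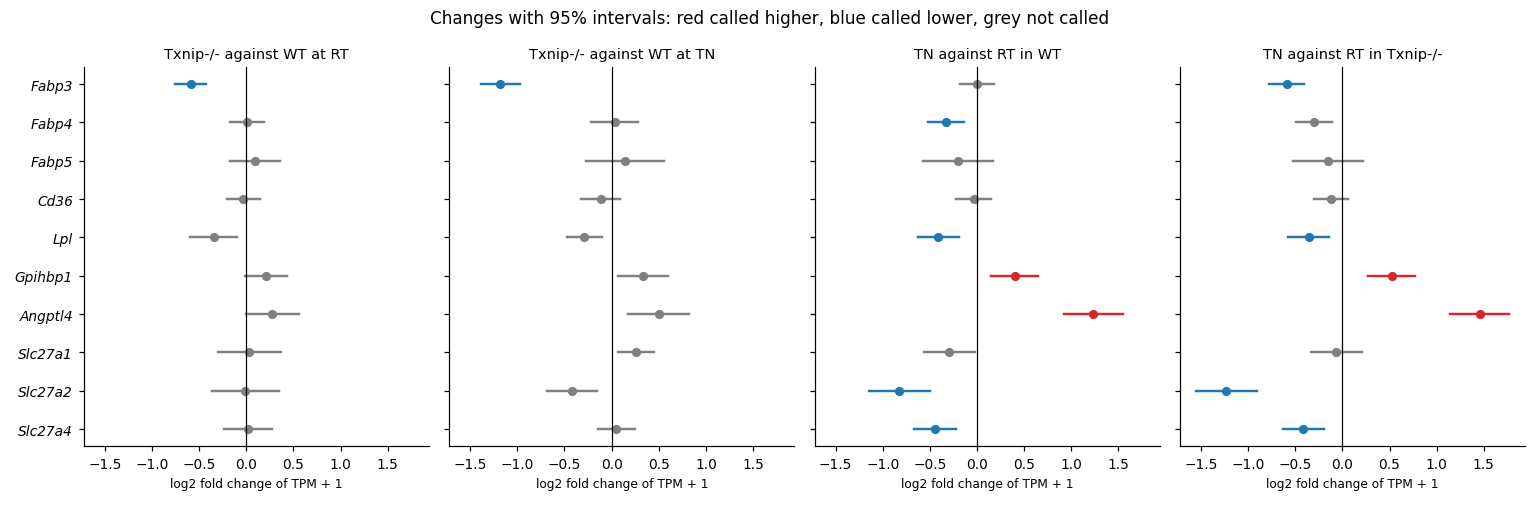
Log2 fold change on the TPM + 1 scale (points) with 95% intervals (lines) of the 10 members in the 4 comparisons, red where called higher, blue where called lower and grey where not called. Fabp3 alone is called between genotypes, at -0.59 at RT and -1.18 at TN, and temperature calls 6 members in each genotype.

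Temperature called 6 of the 10 members in each genotype. In WT, Fabp4, Lpl, Slc27a2 and Slc27a4 were lower and Gpihbp1 and Angptl4 higher at TN, where 6.39% of 12486 genes were called lower and 31.4% higher. In Txnip-/-, Fabp3, Lpl, Slc27a2 and Slc27a4 were lower and Gpihbp1 and Angptl4 higher, where 8.27% were called lower and 30.9% higher. Of the brown adipocyte markers, 5 of 10 were called lower at TN in WT (median log2 fold change -0.44) and 7 of 10 in Txnip-/- (-1.04). Their part in the falls of the members was not tested. The median log2 fold change of all genes tested was itself 0.18 in WT and 0.15 in Txnip-/-, while that of the members was -0.25 and -0.23. Centring each library on its median moved these changes by -0.18 and -0.19, and split the calls over all genes into 1926 higher and 1841 lower in WT, from 3919 and 798, and into 2294 and 2435 in Txnip-/-, from 3858 and 1033. Relative to that shift Fabp4 was called lower in Txnip-/- as well (-0.49, adjusted p = 0.0016 by limma). In WT the call of Gpihbp1 was lost (0.22, adjusted p = 0.15 by limma). Slc27a1 was called lower there (-0.48, adjusted p = 0.00945 by limma). The directions of the members called without centring did not change. The temperature comparisons share their libraries with the genotype comparisons.

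Between genotypes at TN, 7 of the 10 members did not overlap (Fabp3, Cd36, Lpl, Gpihbp1, Angptl4, Slc27a1 and Slc27a2), where 31.1% of all genes tested did not overlap. At RT it was 1 of 10, Fabp3, where 22.6% did not. Both temperatures were then averaged in 1 contrast of genotype over all 12 libraries, which was added after the values were seen. It called Fabp3 lower (log2 fold change -0.89, 95% interval -1.02 to -0.76, adjusted p = 1.72e-05 by limma) and Angptl4 higher (0.39, 0.17 to 0.61, adjusted p = 0.0244 by limma), where 2.2% of genes were called lower and 5.64% higher. Lpl (-0.32, adjusted p = 0.0106) and Gpihbp1 (0.27, adjusted p = 0.0454) passed the adjustment and missed the fold threshold, and Lpl was called with upper-quartile normalization (-0.34, adjusted p = 0.00832) and with median centring (-0.35, adjusted p = 0.0112). The call of Angptl4 was lost without RT WT replicate 1, RT Txnip-/- replicate 3, TN WT replicate 2, TN WT replicate 3, TN Txnip-/- replicate 1 or TN Txnip-/- replicate 2, with adjusted p of 0.0535, 0.0526, 0.0537, 0.0506, 0.0609 and 0.0572. It was also lost without the filter on low values (adjusted p = 0.05004 by limma).

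Genes around this chain were counted from 8 lists, and the counts are of genes called unless stated otherwise. Between genotypes they are to be read against 0.726% of all genes called lower and 0.76% called higher at RT. At TN these shares were 2.17% and 6.49%. With temperature, 31.4% of all genes were called higher and 6.39% lower at TN in WT, and 30.9% and 8.27% in Txnip-/-. Of acyl-CoA synthetases, which trap fatty acids in the cell, 0 of 9 tested were called at RT and 1 of 9 at TN, Acsl1, which was lower in Txnip-/- (log2 fold change -0.62, adjusted p = 0.0327 by limma). In the temperature comparisons 3 of 9 were lower in each genotype, with 1 of 9, Acsm5, higher in Txnip-/-. Of genes for acyl-CoA binding and carnitine entry, which bring fatty acids into mitochondria, 0 of 11 were called at RT, and at TN 2 of 12 were lower, Cpt1b (-0.65) and Slc25a20 (-0.48). At TN against RT, 7 of 12 were lower in each genotype, with 2 of 12 higher in Txnip-/-.

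Of partners of Lpl, 0 of 15 were called at RT, and at TN Lmf1, which Lpl needs to fold, was lower (-0.33, adjusted p = 0.0451 by limma) and Pcsk5, a proprotein convertase, higher (0.58, adjusted p = 0.0306 by limma) among 13 tested. With temperature, 2 of 15 were higher and 3 lower in WT, and 4 higher and 2 lower in Txnip-/-. The lipoprotein receptor Vldlr was the only 1 of 8 receptors called between genotypes at TN (-0.41, adjusted p = 0.0269 by limma), and 0 of 6 were called at RT. At TN against RT 2 of 7 receptors were higher and 1 lower in each genotype, a share of higher calls near that of all genes. Among genes of caveolae and of Cd36 traffic, Got2 was higher in Txnip-/- at RT (0.68) and Cavin3 at TN (0.41), 1 of 11 each. At TN against RT, 6 of 11 were higher in WT and 8 of 11 in Txnip-/-, where 1 was lower. The endothelial, macrophage and fibroblast markers given above were higher at TN too, and their part here was not tested.

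None of 8 PPAR partners, the nuclear receptors and coactivators that drive several members, was called between genotypes at either temperature. At TN, 7 of the 8 had log2 fold changes below 0, 4 of 8 had an unadjusted p under 0.05, as did 3306 of all 12891 genes, and the median was -0.29, against 0.01 for all genes tested. Among them Ppara was at -1.09 (adjusted p = 0.0656 by limma) and Ppargc1a, a coactivator of heat production, at -0.72 (adjusted p = 0.0514 by limma). At RT the median was -0.06, against 0.03. With temperature 1 was higher (Pparg) and 1 lower (Rxrg) in WT, and 2 were lower in Txnip-/- (Ppargc1a and Rxrg). The other relatives of the binding proteins were mostly too low to test: Rbp4, a secreted retinol carrier and not a cytosolic fatty acid binding protein, was lower in Txnip-/- at RT (-1.13, adjusted p = 0.03 by limma) and at TN (-0.66, adjusted p = 0.0499 by limma), 1 of 1 and 1 of 2 tested. Rbp4 was also lower at TN than at RT in each genotype. Of the other transport proteins Slc27a3 alone could be tested, and it was not called between genotypes and was higher at TN in WT (0.59) and Txnip-/- (0.66).

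The genes whose levels over the 12 libraries lay nearest to those of the members that varied most were sought by the root mean square difference of log2(TPM + 1), each gene centred on its own mean. For Fabp3 these were Cdo1 (0.18), which oxidises cysteine, Dbt (0.19), a subunit of the branched-chain keto acid dehydrogenase, and Syp (0.22), against a range of 1.18 in the group means of Fabp3. Cdo1 averaged 1258 TPM in WT and 854 in Txnip-/- at RT, and 1085 in WT and 613 in Txnip-/- at TN. For Angptl4 they were Themis2 (0.12), Rab3il1 (0.13) and Nrros (0.14). These are low genes, at 2.18, 1.21 and 2.69 TPM in RT WT and 9.79, 6.45 and 9.74 in TN Txnip-/-. Angptl4 averaged 188 and 636 TPM in these groups. At such low levels the added 1 TPM shrinks a change, so the closeness depends on it. For Slc27a2 the nearest were Ptger1 (0.13), Slc25a17 (0.14), a peroxisomal carrier, and Adra1a (0.15). Among the members themselves the nearest to Fabp3 was Lpl (0.34), and Fabp4 and Slc27a4 were nearest to each other (0.15).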

How the data were processed

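RNA-seq of interscapular BAT was analysed in 12 libraries, 3 per group. By the labels and methods, poly-A RNA was read as single ends of 75 bases, aligned to mm10 with STAR 2.7.5a and counted over exons with HOMER 4.11.1, keeping 1 transcript per gene and naming no strand option. The authors deposited these as TPM for all 12 libraries, normalized by transcript length and by the library total. Further tables, 1 per temperature, hold log2-type values that the authors deposited for its 6 libraries, normalized together by an unnamed transform, and p-values and fold changes from a comparison by the authors, which were not used. Gpihbp1 and Slc27a1 have another transcript in those tables. Over the 25124 genes the TPM add up to 55.4% to 57.6% of their nominal total.

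Groups and replicate numbers came from the sample labels. No counts were used, and the tests were made with limma 3.58.1 in R 4.3.3 on log2(TPM + 1), with a trend on mean expression, genes with a mean of at least 1 TPM and Benjamini-Hochberg adjustment. Genotypes were compared on the 6 libraries of each temperature, and temperatures and the interaction on all 12. Shares and ratios were compared by exact permutation of library labels, 24 tests in all. WT mice were littermates of Txnip-/- mice, but no source used here says which libraries share a litter, so p-values measure the spread between these libraries, and the counting error, which TPM hide, was left out. Total reads were 29.93 to 47.44 times 1000000 per library. No pair of libraries had identical values for most genes above 1 TPM. Both pipelines were tested on simulated data.

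The members, the gene lists and markers were chosen with earlier results of these data known. All 10 members are named. Of each list the most changed called gene of each sign in the genotype comparisons is named, and for the 3 members whose group means varied most the 3 nearest genes. Other listed genes were named after their values were seen. Promoters are from RefSeq (GRCm38.p6), overlaps and shared 75-base stretches from GENCODE M21 (GRCm38), and 5 members have a promoter entry in the table used. Alternatives were log2(TPM + 0.1), no filter on low values, upper-quartile normalization, median centring, a replicate block, other sets of libraries, the authors' log values, other fold thresholds (none, 1.5) and each library left out in turn. Figures were drawn with matplotlib 3.10.9.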

Additional observations from a re-analysis of the deposited data

Results flagged for a closer look

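The share of Fabp3 in the summed TPM of Fabp3, Fabp4 and Fabp5 moved in opposite directions with temperature in the 2 genotypes: from RT to TN it was higher by 0.803 percentage points in WT and lower in Txnip-/- (-0.391), and no RT library overlapped a TN library of its genotype. In WT the higher share goes with a fall of Fabp4 from a mean of 16388 to 13062 TPM, while Fabp3 averaged 552 and 554. The difference between these effects was not tested for the share. For the level of Fabp3 alone the interaction had an adjusted p of 0.115 (limma).

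Txnip was the 1 gene whose genotype effect differed between RT and TN at an adjusted p under 0.05 (interaction -2.09 on the log2 scale, adjusted p = 0.00344 by limma). Its level was higher at TN in WT (log2 fold change 0.89) and lower at TN in Txnip-/- (-1.21), where reads on the locus remained in all 6 libraries.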

How the results depend on the processing

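Of the counts of members called, the 1 of Txnip-/- against WT at RT was 0 without the filter on low values and 0 to 1 with each library left out, and the 1 at TN was 2 with upper-quartile normalization, median centring, all 12 libraries in 1 fit and the authors' log values, and 1 to 2 with each library left out. The 6 of TN against RT became 2 in WT and 3 in Txnip-/- at a fold change above 1.5, and ran from 4 to 7 and from 5 to 7 with each library left out, and in WT it was 5 without the filter. The 2 of the contrast averaged over RT and TN were 1 without the filter and above 1.5-fold, 3 with upper-quartile normalization and median centring, 4 with no fold threshold, and 1 to 3 with each library left out. Without the filter the adjusted p of Fabp3 at RT was 0.0537. The interaction called 0 members in every setting run.

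Over all genes, the 178 calls at RT were 44 without the filter, 272 with all 12 libraries, 116 above 1.5-fold and 2 to 159 with each library left out. The 1116 at TN were 621 without the filter, 599 above 1.5-fold and 456 to 1005 with each library left out. Above 1.5-fold the 4717 in WT and 4891 in Txnip-/- with temperature were 1976 and 2380, and the 979 of the averaged contrast were 375, and 1790 with no fold threshold.

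Differences near 0 changed sign. Fabp4 between genotypes at RT was -0.017 with upper-quartile normalization, -0.021 with median centring and -0.028 with the authors' log values, at TN -0.0034 with median centring, and averaged -0.0031 with upper-quartile normalization and -0.0091 with median centring. Slc27a4 at RT was -0.0043, -0.0096 and -0.018 in the 3 settings named first for Fabp4, and Slc27a1 at RT -0.012 with the authors' log values. With each library left out, Txnip-/- against WT at RT ran from -0.074 to 0.028 for Cd36, -0.065 to 0.064 for Fabp4, -0.032 to 0.18 for Fabp5, -0.12 to 0.13 for Slc27a1, -0.13 to 0.16 for Slc27a2 and -0.062 to 0.12 for Slc27a4. At TN it ran from -0.018 to 0.086 for Fabp4, -0.085 to 0.28 for Fabp5 and -0.0059 to 0.10 for Slc27a4, and averaged from -0.016 to 0.048 for Fabp4 and -0.0065 to 0.083 for Slc27a4. TN against RT in WT ran from -0.12 to 0.017 for Cd36, -0.073 to 0.084 for Fabp3 and -0.34 to 0.027 for Fabp5, and in Txnip-/- from -0.15 to 0.023 for Slc27a1. The interaction ran from -0.15 to 0.0033 for Cd36, -0.031 to 0.097 for Fabp4, -0.18 to 0.19 for Fabp5, -0.017 to 0.17 for Lpl and -0.068 to 0.11 for Slc27a4. The share of Slc27a2 differed between genotypes at RT by -2.94 to 1.42 percentage points, and over both temperatures by -7.21 to -5.03, with an exact permutation p of 0.02 to 0.09. The cause was not tested. On the difference of log2(TPM + 1), no share or ratio changed direction or its side of the threshold.

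With the replicate block, the members called were 1 at RT, 1 at TN, 6 in WT, 6 in Txnip-/-, 0 in the interaction and 2 in the averaged contrast, as without it, and Fabp3 had an adjusted p of 0.033 at RT and 0.00606 at TN (limma). The block moved the calls over all genes at RT from 178 to 100 and in the interaction from 1 to 4. For temperature it joined RT and TN libraries of a genotype by the number in their titles. In the authors' own names for the libraries, RT and TN share no number. The unchanged counts with temperature therefore test no real pairing. The replicate numbers share only a number: the deviations of same-numbered RT libraries correlated at 0.297, -0.0221 and 0.21 across genes, those of TN libraries at 0.042, 0.0228 and -0.0362, and 4 of 6 RT and 2 of 6 TN libraries correlated best with their own number in the other genotype.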
